A study of Mus musculus with 8 samples.

Results

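Glycolysis and the hypoxia response are described here through 34 genes, chosen by name: glucose carriers (Slc2a1, Slc2a3, Slc2a6), the enzymes from glucose to lactate (Hk1, Hk2, Hk3, Gpi1, Pfkl, Pfkm, Pfkp, Aldoa, Aldoc, Tpi1, Gapdh, Pgk1, Pgam1, Eno1, Pkm, Ldha), regulators of that flow (Pfkfb3, Pfkfb4, Pdk1), lactate carriers (Slc16a1, Slc16a3), the oxygen-regulated factor and its hydroxylases (Hif1a, Egln1, Egln3) and genes induced by low oxygen (Bnip3, Vegfa, Adm, P4ha1, Ndrg1, Ankrd37, Ddit4). Of the 34 members, 30 had a probe set named for that gene alone, among 22180 genes so measured. Aldoa shared its probe set with Aldoart1 and Ankrd37 with Lrp2bp, while no probe set carried the name Gpi1 or Eno1, and these 4 members stand outside the counts below. Where a gene had several probe sets (6 members), the probe set with the highest mean over the 8 arrays stood for it.

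Glycolysis splits glucose into pyruvate, which is either reduced to lactate or oxidised in mitochondria. Hypoxia-inducible factor 1 (HIF-1) is a transcription factor whose alpha subunit is hydroxylated and destroyed when oxygen is present, and it drives most of the glycolytic genes. Activated dendritic cells (DCs) are known to raise glycolysis, and the kinase Lkb1, which activates the energy sensor AMPK, restrains it in many cell types.

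DCs sorted from the spleens of mice aged 8 weeks on the C57BL/6 background were hybridised to Affymetrix arrays (Mouse Gene 2.0 ST), on which biotin-labelled cRNA made from total RNA binds to probes. There were 3 arrays of Lkb1f/f mice (WT, floxed alleles without Cre), 3 of Cd11cCreLkb1f/f mice (KO, Lkb1-deficient DCs), 1 of untreated wild type C57BL/6 mice (Control) and 1 of wild type C57BL/6 mice given the bacterial product LPS overnight (LPS). The Cd11c promoter drives Cre in every cell that expresses CD11c, macrophages included, and the LPS dose for the arrays was not given in the sources used here. The labels give the LPS and Control mice as wild type, whereas a legend of the study names Lkb1f/f mice for the LPS array, so the floxed alleles of that array are not settled. The WT and KO titles carry the replicate numbers 1 to 3, and the labels do not say whether they are separate mice, although a legend of the study counts the KO group in mice. If they are not, p-values measure only the spread between these arrays, which may be technical.

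Values are the deposited log2 signals, so a difference of 1 is a doubling. The level of a whole array moved with its replicate number: the medians over all probe sets were 4.64, 4.09 and 3.40 on WT arrays 1, 2 and 3 and 4.59, 4.07 and 3.35 on KO arrays 1, 2 and 3. Each KO array was therefore set against the WT array of the same number, and limma was fitted without a block and again with a block for each replicate number. Stk11, which encodes Lkb1, read 6.73, 6.83 and 5.96 on the WT arrays and 6.67, 6.41 and 5.55 on the KO arrays, a difference that did not pass limma with the block (Benjamini-Hochberg adjusted p = 0.458). Control and LPS have 1 array each, so that comparison has no replicate check and no p-value, and 52.5% of genes carried exactly equal values on both arrays. In bulk RNA of this kind, fewer cells of a type and less RNA per cell cannot be told apart.

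The measured members did not share a direction in Lkb1-deficient DCs. Ndrg1 and Pfkfb3 were higher on every KO array than on the WT array of the same number, by 1.17 ± 0.11 and 0.91 ± 0.18 on the log2 scale (mean ± SD of 3 differences), and the glucose carrier Slc2a3 and the hexokinase Hk2 were lower, by means of −1.06 ± 0.51 and −0.62 ± 0.25. In all, 11 members were higher in all 3 replicate numbers and 2 were lower, where 16.7% of all genes were higher and 16.7% lower. Over the 30 members the median difference was 0.07, beside −0.01 over all genes. Without the block, 0 of 30 members passed limma at an adjusted p under 0.05, where 0.00967% of all probe sets passed as higher and 0% as lower, and 0 members had an unadjusted p under 0.05, where 0.3% of all probe sets did so as higher and 0.0605% as lower. With the block, 1 of 30 passed, Ndrg1, which rose, where 0.206% of all probe sets passed as higher and 0.0242% as lower.

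After overnight LPS, 4 of 30 members were at least 1.5-fold higher (Ndrg1, Pfkfb3, Ddit4 and Hk3) and 3 at least 1.5-fold lower (Slc2a3, Hk2 and Vegfa), where 4.11% of genes were that much higher and 4.95% lower. A further 15 members differed by less than 1.5-fold, and 8 (Tpi1, Pfkfb4, Pgk1, Pgam1, Pdk1, Slc16a1, Egln3 and Bnip3) were listed at equal values on the Control and LPS arrays. The median LPS difference was 0.00 over the members and 0.00 over all genes. The latter was fixed by the 52.5% of genes with equal values on both arrays, so the medians do not measure a net response. The KO and LPS comparisons share no array.

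**Figure D1:**
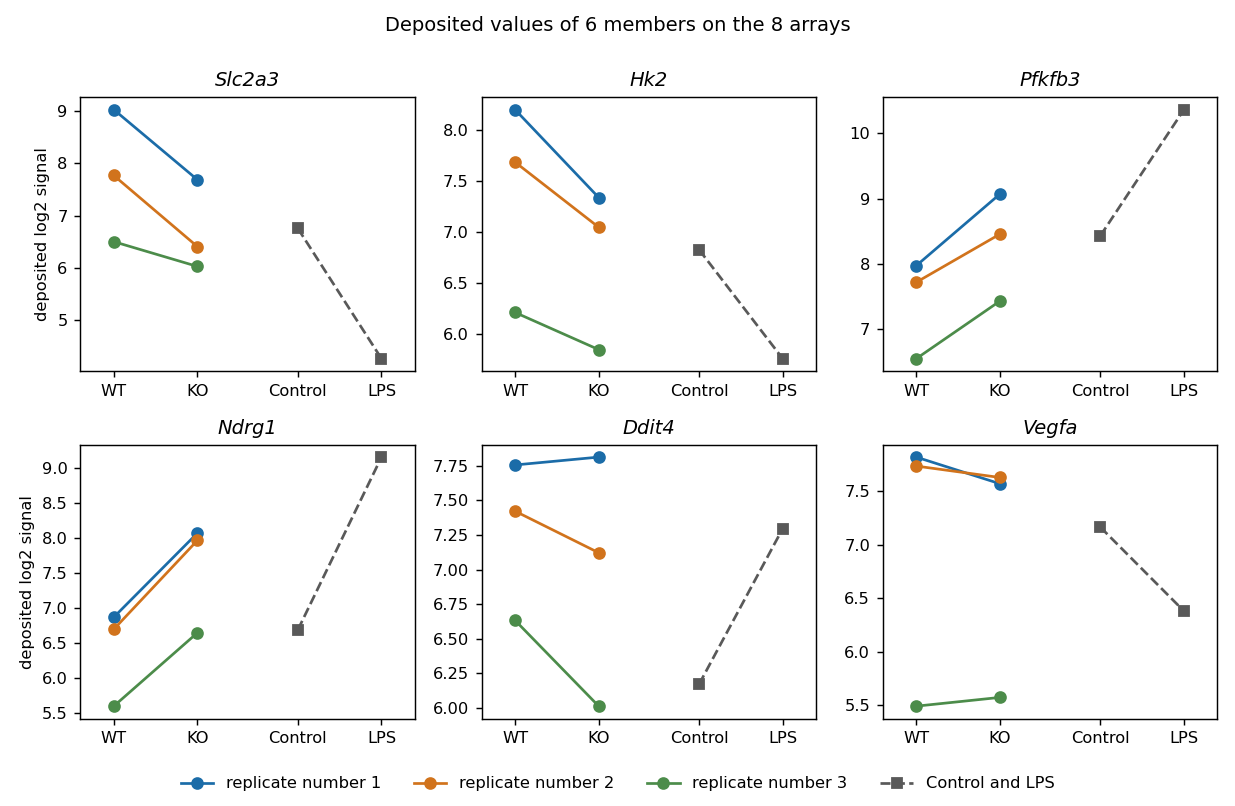
Deposited log2 signal (vertical axis, a separate range per gene) of 6 members on the 8 arrays, with WT and KO (Lkb1-deficient) arrays of the same replicate number joined by a solid line and Control and LPS by a dashed line. Slc2a3 and Hk2 are lower and Pfkfb3 and Ndrg1 higher at the right end of all 4 lines, whereas Ddit4 and Vegfa differ between the KO lines by −0.62 to 0.08 and have LPS differences of 1.12 and −0.78.

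Among the glucose carriers, Slc2a3 encodes GLUT3, a high-affinity glucose transporter of neurons and leukocytes. Its signal was 9.03, 7.77 and 6.50 on WT arrays 1, 2 and 3 and 7.69, 6.40 and 6.02 on the KO arrays. Each KO array lay below its WT partner, by −1.35, −1.37 and −0.48, although the ranges of the groups overlapped. The mean corresponds to a 2.09-fold lower signal (limma with the block, SE 0.21, unadjusted p = 0.0032, adjusted p = 0.188). The LPS array read 4.25 against 6.75 on Control, 5.65-fold lower, at a signal close to the median of the LPS array (4.14). With 16 added to the linear values the difference was −1.82.

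Slc2a1, which encodes GLUT1, the main carrier of most proliferating cells, read 8.66, 8.08 and 7.27 on the WT arrays and 8.82, 7.98 and 7.11 on the KO arrays. Its within-number differences were 0.16, −0.10 and −0.16, and Control and LPS stood at 6.99 and 6.91, so the carriers did not share a direction. Slc2a6 encodes GLUT6, a transporter of lysosomal membranes in macrophages, and read 7.52, 8.10 and 6.11 on the WT arrays and 8.17, 8.31 and 6.75 on the KO arrays. Its differences of 0.65, 0.21 and 0.64 all had the opposite sign to those of Slc2a3 (mean 0.50, limma with the block, adjusted p = 0.286). The LPS array was also above Control for Slc2a6, at 7.61 against 7.11.

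Hexokinases phosphorylate glucose on entry, and Hk2 is the inducible, HIF-responsive form. Hk2 read 8.20, 7.69 and 6.21 on the WT arrays and 7.34, 7.05 and 5.84 on the KO arrays, with differences of −0.86, −0.64 and −0.37. The KO array was the lower of each pair and the ranges overlapped. The mean fold was 1.54 (limma with the block, SE 0.13, unadjusted p = 0.0047, adjusted p = 0.215). On the LPS array Hk2 was 5.75 against 6.83 on Control, 2.10-fold lower.

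Hk3, the myeloid hexokinase, went the other way under LPS, at 6.80 against 6.13, and read 6.17, 6.23 and 5.57 on the WT arrays and 6.17, 6.03 and 5.29 on the KO arrays. The first pair was level and the other two were lower in KO by −0.20 and −0.28. Hk1, the housekeeping form, had a mean KO difference of 0.11 ± 0.06 and an LPS difference of 0.39. In the LPS comparison, therefore, Hk2 was lower and Hk3 and Hk1 higher.

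The promoter of Hk2 is shown because it belongs to a member that was lower in both comparisons and holds the letters bound by HIF-1. The window runs from 250 bases before to 50 bases after the start of the gene (RefSeq, build GRCm38.p6, minus strand). Capitals mark ACGTG or GCGTG, the core of the hypoxia response element, or their reverse complements CACGT and CACGC. Hk2 had 2 matches, both ACGTG on the opposite strand, beginning 226 and 52 bases before the start.
Hk2, chr6:82774405-82774704: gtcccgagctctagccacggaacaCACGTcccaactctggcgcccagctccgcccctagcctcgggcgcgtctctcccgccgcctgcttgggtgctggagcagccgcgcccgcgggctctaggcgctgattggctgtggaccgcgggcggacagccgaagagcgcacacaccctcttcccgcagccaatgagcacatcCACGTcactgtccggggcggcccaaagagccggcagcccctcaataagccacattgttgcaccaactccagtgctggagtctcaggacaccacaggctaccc

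In upper glycolysis all 5 measured members had a mean KO difference above 0, and 2 of them were higher in every pair. Of all 22180 genes, 10502 had a mean above 0 and 3704 were higher in every pair. Pfkp, the platelet isoform of phosphofructokinase-1, which commits sugar to glycolysis, read 7.95, 7.58 and 6.85 on the WT arrays and 8.43, 8.00 and 6.98 on the KO arrays (differences 0.48, 0.42 and 0.13). Triose phosphate isomerase, Tpi1, read 8.07, 7.72 and 6.86 on the WT arrays and 8.51, 7.93 and 7.11 on the KO arrays (0.44, 0.21 and 0.24). Both were higher on each KO array of a pair, with overlapping groups and limma adjusted p-values with the block of 0.385 and 0.398. Under LPS, Pfkp moved from 7.97 to 8.20 and Tpi1 was listed at 7.38 on both arrays. The liver and muscle isoforms Pfkl and Pfkm and the aldolase Aldoc had mean KO differences of 0.05, 0.02 and 0.10 with mixed signs among pairs. The probe set shared by Aldoa and Aldoart1 averaged 0.02 in KO and was 0.30 higher on the LPS array.

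Pfkfb3 makes fructose 2,6-bisphosphate, the strongest activator of phosphofructokinase-1, and its expression is induced by hypoxia and by inflammatory signals. It read 7.97, 7.72 and 6.55 on the WT arrays and 9.07, 8.46 and 7.43 on the KO arrays. The differences of 1.10, 0.74 and 0.88 are close to each other, although KO array 3 (7.43) lay below WT arrays 1 and 2. The mean is 1.87-fold (limma with the block, SE 0.12, unadjusted p = 0.0005, adjusted p = 0.0959), short of the threshold. On the LPS array Pfkfb3 reached 10.37 against 8.43 on Control, a 3.82-fold higher signal. Pfkfb4, a related isoform, differed by −0.07, −0.05 and 0.00 between KO and WT and was equal on Control and LPS.

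RefSeq lists more than 1 start for Pfkfb3, and 2 of its windows are printed because this member was higher in both comparisons and the windows differ in their matches (GRCm38.p6, minus strand, capitals as for Hk2). The first holds ACGTG beginning 60 bases before the start. The second holds 4 matches, of which the ACGTG pair overlaps in the palindrome CACGTG at 53 and 52 bases before the start, with GCGTG beginning 122 bases before it and again after it.
Pfkfb3, chr2:11553880-11554179: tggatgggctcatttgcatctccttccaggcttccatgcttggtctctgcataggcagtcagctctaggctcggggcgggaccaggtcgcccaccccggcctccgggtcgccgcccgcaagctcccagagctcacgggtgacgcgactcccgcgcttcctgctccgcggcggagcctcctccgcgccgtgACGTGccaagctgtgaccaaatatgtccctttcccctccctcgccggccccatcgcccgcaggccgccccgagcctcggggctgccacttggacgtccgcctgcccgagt
Pfkfb3, chr2:11502041-11502340: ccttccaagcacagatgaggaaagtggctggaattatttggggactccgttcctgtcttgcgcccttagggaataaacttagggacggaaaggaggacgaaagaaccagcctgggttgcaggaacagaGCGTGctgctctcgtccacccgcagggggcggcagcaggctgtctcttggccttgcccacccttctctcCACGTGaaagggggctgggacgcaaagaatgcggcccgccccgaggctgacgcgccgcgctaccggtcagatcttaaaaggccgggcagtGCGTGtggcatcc

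In lower glycolysis, which yields ATP, all 4 measured members had a mean above 0 and 3 were higher in every pair. Of all 22180 genes, 10502 had a mean above 0. At mean levels of 7 to 9, 30.7% of genes were higher in every pair, and above 9, 30.4%. Phosphoglycerate kinase, Pgk1, read 9.04, 8.64 and 7.84 on the WT arrays and 9.48, 9.07 and 8.07 on the KO arrays (0.43, 0.44 and 0.23). Pyruvate kinase, Pkm, read 9.12, 9.65 and 8.76 on the WT arrays and 9.51, 9.92 and 8.92 on the KO arrays (0.38, 0.27 and 0.17). These are 1.29-fold and 1.21-fold differences in signal that did not pass adjustment (limma with the block, adjusted p = 0.315 and 0.427), and the groups overlapped. Gapdh, a member often used as a reference gene and singled out after its values were seen, differed by 0.25, 0.18 and 0.27 at a WT level of 11.38 ± 0.55 (SD, n = 3). Pgam1 had a mean of 0.07 with mixed signs. After LPS, Pgk1 and Pgam1 were listed as equal, Gapdh differed by 0.02 and Pkm by 0.22.

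The Pgk1 promoter is printed as that of a classical HIF-1 target whose KO difference was small (RefSeq GRCm38.p6, plus strand, capitals as for Hk2). Its Control and LPS values were listed as equal, as for 52.5% of genes, so they do not measure an LPS response. It holds ACGTG beginning 150 bases and, on the opposite strand, 131 bases before the start.
Pgk1, chrX:106186850-106187149: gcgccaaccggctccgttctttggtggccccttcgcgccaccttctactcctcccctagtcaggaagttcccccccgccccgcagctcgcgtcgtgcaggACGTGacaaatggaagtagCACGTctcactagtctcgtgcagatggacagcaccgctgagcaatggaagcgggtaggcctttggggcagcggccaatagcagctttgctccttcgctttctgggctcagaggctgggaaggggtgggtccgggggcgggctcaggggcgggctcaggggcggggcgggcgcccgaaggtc

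At the pyruvate branch, Ldha encodes the lactate dehydrogenase subunit that favours lactate. Ldha read 6.45, 4.57 and 5.03 on the WT arrays and 6.71, 4.79 and 5.10 on the KO arrays, so the pairs differed by 0.26, 0.22 and 0.07 while the WT arrays themselves spanned far more. Its LPS value of 4.56, close to the median of that array (4.14), was below the Control value of 5.03. With 16 added to the linear values this difference went from −0.46 to −0.29. Pdk1, the HIF-induced kinase that shuts pyruvate out of mitochondria, read 5.66, 5.19 and 5.01 on the WT arrays and 5.70, 5.12 and 4.96 on the KO arrays. It was 5.03 on Control and LPS alike. The lactate exporter Slc16a3 (MCT4) had KO differences of 0.41, 0.82 and −0.08 and an LPS difference of 0.57, just inside the 1.5-fold limit of 0.585. Slc16a1 (MCT1) averaged 0.04 in KO.

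**Figure D2:**
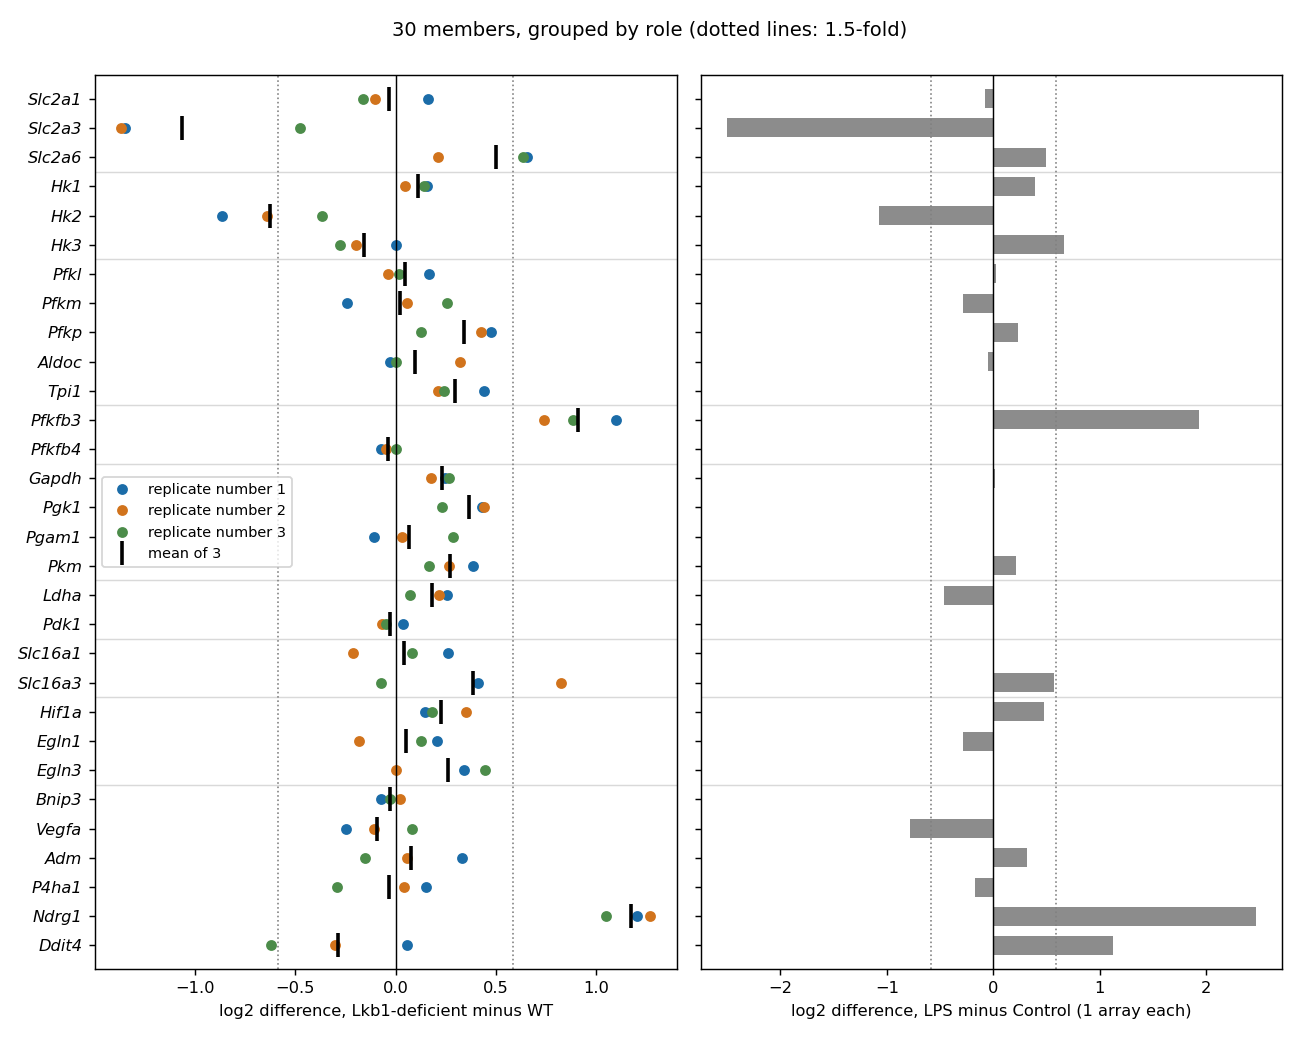
Differences of the 30 measured members in log2 units, grouped by role from carriers to HIF targets: left, Lkb1-deficient minus WT for each replicate number (dots) with the mean of 3 (bar); right, LPS minus Control for 1 array each. Dotted lines mark 1.5-fold, which the mean KO difference of Slc2a3, Hk2, Pfkfb3 and Ndrg1 passes and most other members do not reach in either panel.

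The HIF subunit itself differed little on its brightest probe set. Hif1a read 9.06, 8.21 and 7.55 on the WT arrays and 9.21, 8.56 and 7.73 on the KO arrays, with differences of 0.15, 0.35 and 0.18 (mean 0.23, limma with the block, adjusted p = 0.499). It was 8.52 on the LPS array against 8.05 on Control, 1.39-fold higher. The other Hif1a probe set had KO differences of 0.33, 0.04 and −0.27 and an LPS difference of −0.02, at levels of 3.89 to 4.40 on the WT arrays, near the array medians, so it may be too dim to compare. The hydroxylases Egln1 and Egln3, which mark the HIF alpha subunit for destruction, averaged 0.05 and 0.26 in KO, with signs mixed for Egln1 and an equal pair for Egln3.

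Among the hypoxia-induced genes, Ndrg1, a cytoplasmic protein induced by hypoxia and other stress, had the largest KO difference in size. It read 6.87, 6.69 and 5.60 on the WT arrays and 8.07, 7.96 and 6.64 on the KO arrays. The differences were 1.20, 1.27 and 1.05, but KO array 3 lay below WT arrays 1 and 2, so the groups overlapped. Ndrg1 rose 2.25-fold by limma with the block (SE 0.10, adjusted p = 0.0422), and without the block its adjusted p was 1. With any 1 of the 3 pairs left out, 0 probe sets of the whole table passed the adjusted limit of limma with the block, Ndrg1 included. On the LPS array it was 9.15 against 6.69, a 5.52-fold higher signal. A second Ndrg1 probe set gave 0.59, 0.41 and 0.96 in KO and 0.53 in LPS, the same direction at a smaller size.

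Ddit4 encodes REDD1, an inhibitor of mTORC1 induced by hypoxia, energy stress and glucocorticoids. It read 7.75, 7.42 and 6.63 on the WT arrays and 7.81, 7.12 and 6.01 on the KO arrays, with differences of 0.06, −0.30 and −0.62 (limma with the block, adjusted p = 0.56). LPS stood at 7.30 against 6.17 on Control, 2.18-fold higher, while no KO pair differed upwards by that much. Vegfa, the angiogenic growth factor, read 7.82, 7.73 and 5.49 on the WT arrays and 7.57, 7.63 and 5.57 on the KO arrays (−0.25, −0.11 and 0.08). Vegfa was 6.38 on LPS against 7.16 on Control, 1.72-fold lower, so Ndrg1, Ddit4 and Vegfa, which all belong to the textbook hypoxia response, did not share a direction under LPS. Bnip3 (mitophagy), Adm (adrenomedullin) and P4ha1 (collagen prolyl hydroxylase) had mean KO differences of −0.03, 0.08 and −0.03. The probe set that Ankrd37 shares with Lrp2bp averaged 0.06 in KO.

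The Ddit4 window is printed for contrast, since this member was higher on the LPS array and of mixed sign in the KO pairs (RefSeq GRCm38.p6, minus strand, capitals as for Hk2). ACGTG begins 187 bases and GCGTG 115 bases before the start.
Ddit4, chr10:59951721-59952020: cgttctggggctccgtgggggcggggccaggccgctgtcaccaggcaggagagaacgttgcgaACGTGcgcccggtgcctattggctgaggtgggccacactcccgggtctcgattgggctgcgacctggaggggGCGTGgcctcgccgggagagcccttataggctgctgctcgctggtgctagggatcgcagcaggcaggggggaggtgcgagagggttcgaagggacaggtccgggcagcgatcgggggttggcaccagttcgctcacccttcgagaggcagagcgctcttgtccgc

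RefSeq windows of 300 bases were found for 32 of the 34 members (46 windows). The 2 members without a window, Ndrg1 and Slc2a3, had the largest KO and LPS differences in size among the measured members. ACGTG stood on either strand in 56.5% of the 46 windows, beside 19.6% of 32851 windows of all genes, and ACGTG or GCGTG in 82.6% beside 43.8%. CACGTG, which counts as ACGTG on both strands, was in 13% beside 7.15%. These are matches of letters and not sites of binding, and the printed windows with matches belong to members that were higher in the KO pairs (Pfkfb3 and Pgk1), lower (Hk2) or of mixed sign (Ddit4). The members were chosen by name as glycolytic and hypoxia-induced genes, which HIF-1 is known to drive in large part. Higher shares were therefore built into the list and test nothing. Some windows of a gene overlap, as for Aldoa and Eno1, so a match can be counted more than once.

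The 14 members outside those given array by array had mean KO differences from −0.04 to 0.39, limma adjusted p-values with the block of 0.464 or more, and LPS differences from −0.29 to 0.57. Members past 1.5-fold, or of a common sign with an unadjusted p under 0.05 by limma with the block, had been set apart beforehand. The small differences and high p-values left follow from that choice. Across the 30 members, 9 had an unadjusted p under 0.05 by limma with the block: Slc2a6, Pfkp, Tpi1, Pfkfb3, Pgk1, Pkm and Ndrg1 as higher and Slc2a3 and Hk2 as lower. All genes gave 6.49% as higher and 4.85% as lower at that limit. Of those 9, Ndrg1, Pfkfb3, Slc2a3 and Hk2 were also at least 1.5-fold apart, beside 1.94% of genes as higher and 0.766% as lower. For 0 of 30 members did the WT and KO ranges stand apart, where 0.537% of genes did so as higher and 0.131% as lower. The SD of a member's level over the WT arrays had a median of 0.67 and that of the within-number differences a median of 0.18.

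The share of genes with a common sign depended on signal, and the members are mostly well-expressed genes. At mean levels of 7 to 9, where 12 members lie, 30.7% of genes were higher and 24% lower in all 3 numbers, and 6 of those members were higher and 2 lower. Their median difference was 0.15 beside 0.02 for all genes of that range. At levels of 5 to 7, with 11 members, 3 were higher and 0 lower, beside 24.7% and 18.1% of genes. The 5 members below a level of 5 included 0 with a common sign, beside 9.22% of genes as higher and 13.6% as lower. Gapdh and Pkm, above 9, were both higher, beside 30.4% of genes.

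Among the 22 members with unequal Control and LPS values, 16 had the same sign in LPS minus Control and in the mean KO difference, beside 59.1% of all such genes. Of the 4 members at least 1.5-fold higher on the LPS array, Ndrg1 and Pfkfb3 were higher in every KO pair and Ddit4 and Hk3 were not, beside 59.5% of the 911 genes with such an LPS difference. Of the 3 members at least 1.5-fold lower, Slc2a3 and Hk2 were lower in every KO pair and Vegfa was not, beside 48.4% of 1097 genes. These shares of members at 1.5-fold are near those of all genes.

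**Figure D3:**
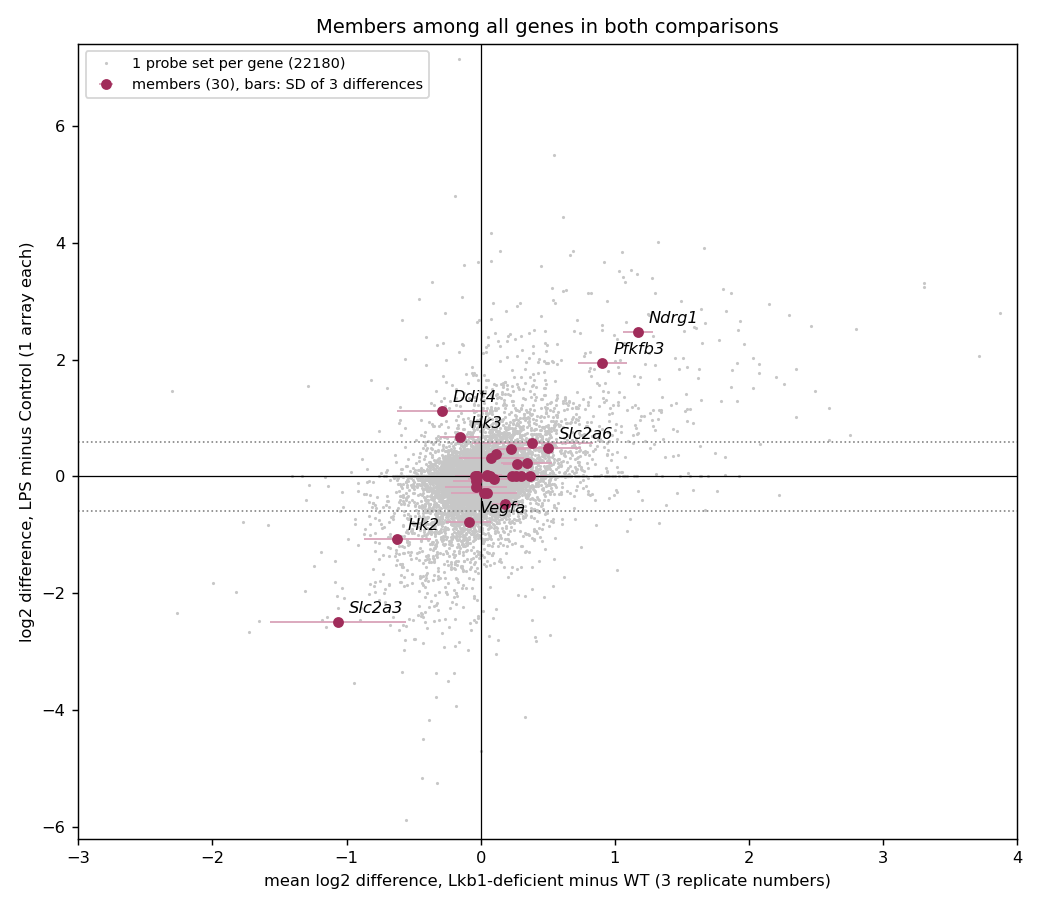
Mean log2 difference of Lkb1-deficient minus WT over 3 replicate numbers (horizontal) against the log2 difference of LPS minus Control, 1 array each (vertical), for all genes (grey) and the 30 measured members (purple, bars are the SD of 3 differences). Ndrg1 (1.17 and 2.47) and Pfkfb3 (0.91 and 1.93) lie at the upper right, Slc2a3 (−1.06 and −2.50) and Hk2 at the lower left, and most members lie near the centre of the grey cloud.

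Of 41 measured genes of glycolysis, pyruvate use and gluconeogenesis, 4 were higher and 4 lower in KO at an unadjusted p under 0.05 (limma with the block), beside 6.49% and 4.85% of all genes, and 0 passed adjustment. In LPS, 3 were at least 1.5-fold higher and 4 lower, beside 4.11% and 4.95% of all genes. Eno2, the neuronal enolase, was higher in every KO pair, by 1.496, 0.91 and 1.00, and 0.71 higher in LPS. Gpd2, the mitochondrial glycerol phosphate dehydrogenase, averaged 0.56 in KO and 0.79 in LPS, and Slc16a7, the lactate and pyruvate carrier MCT2, −0.39 and −1.46. Mpc1, a subunit of the mitochondrial pyruvate carrier, averaged 0.43 in KO and 0.87 in LPS. Signs were opposite for Eno3, the muscle enolase, which was higher in every KO pair (0.41, 0.37 and 0.52) and −0.88 in LPS. Gpd1l was lower in both, with a mean of −0.15 in KO (mixed signs among pairs) and −0.97 in LPS. Of 9 pentose phosphate genes, 0 had an unadjusted p under 0.05 in KO (limma with the block) and 2 were at least 1.5-fold lower in LPS, Prps2 (−1.44) and Taldo1 (−0.66), followed in size by Prps1 (−0.47) and Pgd (0.46). The largest KO means of that list were those of Prps2 (−0.25), H6pd (−0.20), Pgd (0.18) and Rpe (0.07).

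Of 49 measured genes of the HIF pathway and hypoxia response that are no members, 5 were higher and 3 lower in KO at that unadjusted limit, beside 6.49% and 4.85% of all genes, and 0 passed adjustment. In LPS, 5 were at least 1.5-fold higher and 3 lower, beside 4.11% and 4.95%. Glycogen phosphorylase, Pygl, was higher in KO by 1.17, 1.26 and 0.59 and differed by −0.23 in LPS. Mxi1, a Myc antagonist, was higher by 0.82, 1.05 and 0.64 in KO and 1.03 in LPS, whereas the transferrin receptor Tfrc was lower, by a mean of −0.43 and by −1.85 in LPS. Bhlhe41, a circadian repressor, differed in KO by 0.51, −0.89 and −1.02, and by −0.06 in LPS. Apart from Tfrc, the largest LPS differences of that list were those of the metallothionein Mt2 (4.17), Anxa1 (−2.42) and the endothelin Edn1 (2.23), whose KO means were 0.08, 0.09 and 0.14.

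The cell type label was checked against markers. DC markers were high on every array, with a summed linear signal (9 genes) of 6758 to 16817 on WT, 7032 to 15716 on KO and 16300 on Control, but 6567 on LPS, where 6 of the 9 were at least 1.5-fold lower (Itgax −2.73, Ciita −2.44). Markers of CD8+ DCs (4 genes) summed to 467 to 1504 on WT, 473 to 1338 on KO, 924 on Control and 365 on LPS, where 3 of the 4 were at least 1.5-fold lower (Xcr1 −3.92). B cell markers (4 genes) summed to 735 to 2396 on WT and 464 to 2306 on KO, with a lower mean KO difference for all 4. Their sum was 470 on Control and 197 on LPS, with 3 of the 4 at least 1.5-fold lower on LPS. Natural killer cell markers (5 genes) summed to 358 to 477 on WT and 243 to 453 on KO, with a lower mean KO difference for 4 of the 5. Their sum was 478 on Control and 668 on LPS, with 2 of the 5 at least 1.5-fold higher on LPS and 1 lower. The mean KO difference was higher for 3 of 4 T cell markers and 4 of 5 markers of plasmacytoid DCs. Markers of CD11b+ DCs (6 genes) summed to 1561 to 4211 on WT and 1272 to 2666 on KO, with a lower mean KO difference for 4 of the 6 (Cd4 −1.15, Dtx1 −1.14, Clec4a4 −0.94 and Sirpa −0.20) and a higher one for Itgam, which encodes CD11b (0.27), and Esam (0.01). Neutrophil markers (9 genes) summed to 3262 on WT array 3 and 2820 on KO array 3, against 139 to 470 on the other WT and KO arrays, and to 141 on Control and 187 on LPS. Macrophage and monocyte markers (9 genes) summed to 4769 to 8942 on WT, 4083 to 8446 on KO, 7693 on Control and 4573 on LPS. On LPS, 6 of the 9 were at least 1.5-fold lower and 2 higher. Their mean KO difference was higher for 4 and lower for 5, the largest in size being Adgre1 (−0.86). The part of these marker shifts in the members' differences was not tested. Without the third pair, the KO differences left for Ndrg1 were 1.20 and 1.27, for Pfkfb3 1.10 and 0.74, for Slc2a3 −1.35 and −1.37 and for Hk2 −0.86 and −0.64.

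**Figure D4:**
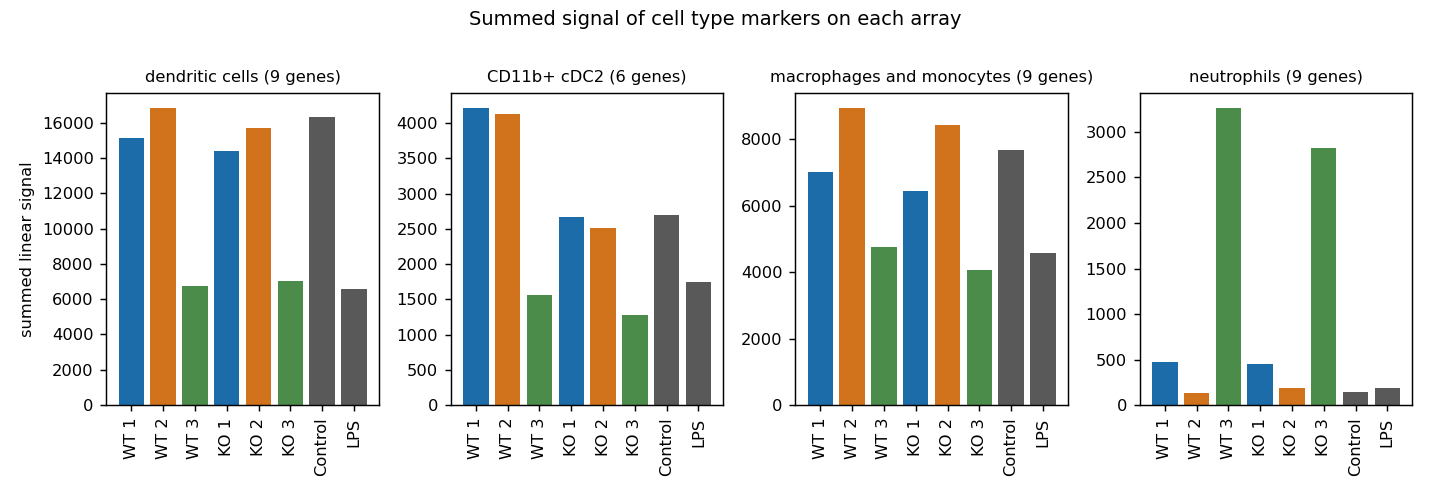
Summed linear signal (vertical axis from 0, a separate range per panel) of markers of 4 cell types on each of the 8 arrays, coloured by replicate number with Control and LPS in grey. The LPS bar of the DC panel (6567) is below Control (16300), the CD11b+ panel is lower in KO, and the neutrophil panel stands out on WT array 3 (3262) and KO array 3 (2820).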

How the data were processed

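RNA of sorted splenic DCs from 8 samples was hybridised to Affymetrix Mouse Gene 2.0 ST arrays. What the authors deposited is a log2 signal for each probe set on each array. The methods name GeneSpring and the submitters' processing notes MAS5. How signals were summarised and normalized is not given in the sources used here. The values were used as deposited, for 41345 probe sets (33649 with Control and LPS values), with gene names from the array annotation. Groups came from the sample titles. KO and WT were compared with limma 3.58.1 in R 4.3.3 (lmFit and eBayes), p-values being adjusted by Benjamini-Hochberg across the whole table, without a block, as the methods name an unpaired t-test, and with a block for each replicate number. Same-numbered WT and KO arrays deviated together from their group means (correlations of 0.849, 0.795 and 0.738, all above the limit of 0.1), which is why the blocked values are printed. For different numbers the correlations were −0.13 to −0.61. Deviations cancel within a group, so positive values for the same number push those for different numbers below 0, and the latter add no separate evidence. This pairing comes from the titles' numbers and the data, and no label states its source. limma was tested on simulated data first. LPS and Control were compared by difference alone. Called means at least 1.5-fold there.

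Members, pathway lists and markers were chosen with earlier results of these data known. Given array by array are the members at least 1.5-fold apart in either comparison, those with 1 sign in all 3 numbers and a blocked unadjusted p under 0.05, and Hif1a, Slc2a1, Hk2, Pfkfb3, Ldha and Pdk1. Of other pathway genes, up to 4 with the largest difference in each comparison and list are named. The split by signal level was added after seeing the data. Alternatives were quantile normalization, median centring, an offset of 16 on the linear scale, a filter on dim probe sets, the mean of a gene's probe sets, the methods' t-test and leaving out each array or pair. The number of arrays limits the precision.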

Additional observations from a re-analysis of the deposited data

How the results depend on the processing

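The replicate numbers pair the arrays, and the fit without this pairing carries the level of each array into its error, with 1 SE of 0.63 for every probe set. With the replicate block, 1 member (Ndrg1) passed the adjusted p in place of 0, and 4 members (Ndrg1, Pfkfb3, Slc2a3 and Hk2) passed 1.5-fold with an unadjusted p under 0.05 in place of 0. The replicate block with quantile normalization gave 1 (Ndrg1, 1.16, limma adjusted p = 0.0427) and 4. With the offset of 16 the replicate block gave 0 and 3, and Ndrg1 missed the adjusted limit (1.03, limma adjusted p = 0.0779). Without the block, the second count was 4 after quantile normalization and 3 after median centring, and 0 members passed the methods' t-test after Benjamini-Hochberg adjustment. At an unadjusted p under 0.05 alone, the replicate block called 9 members in place of 0. It changed no other call. Leaving out 1 pair under the replicate block, the second count was 3 without replicate 1, 5 without replicate 2 and 5 without replicate 3. Ndrg1 then missed the adjusted limit each time, with 0 of all probe sets past it. Of all 41345 probe sets, the second count took 124 as higher and 25 as lower without the block, and 633 and 589 with it. It took 469 and 246 after quantile normalization and 469 and 160 after median centring. Without replicate 1, 2 or 3 under the block, it took 702 and 855, 800 and 723, and 793 and 754. Over all 18 alternatives the adjusted p of Ndrg1 ran from 0.0422 to 1, that of Pfkfb3 from 0.0928 to 1, that of Slc2a3 from 0.164 to 1 and that of Hk2 from 0.189 to 1.

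Leaving out 1 array breaks a pair, so the median over all probe sets itself moved from −0.35 (without WT array 3) to 0.31 (without KO array 3). In each case 0 members passed the adjusted p, 0 to 2 passed the 1.5-fold limit with an unadjusted p under 0.05, and the median over the members ran from −0.21 to 0.45. Ndrg1 (0.78 to 1.63), Pfkfb3 (0.47 to 1.35), Slc2a3 (−1.70 to −0.43) and Hk2 (−1.20 to −0.17) kept their direction. The sign turned within the ranges of Slc2a1 (−0.46 to 0.40), Slc2a6 (−0.066 to 1.00), Hk3 (−0.37 to 0.11), Tpi1 (−0.0464 to 0.67), Ldha (−0.41 to 0.73), Pdk1 (−0.25 to 0.16), Hif1a (−0.14 to 0.62), Vegfa (−0.85 to 0.58) and Ddit4 (−0.70 to 0.20). Slc2a1 also turned to 0.00394 after median centring, 0.00129 with the mean of its probe sets and 0.0295 with the replicate block without replicate 3, and Pdk1 to 0.0103 after median centring.

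For LPS, the members past 1.5-fold numbered 7, and 8 after quantile normalization or 6 with the offset of 16. The offset brought Slc2a3 to −1.82, Ndrg1 to 2.30 and Ldha to −0.29, and the mean of probe sets brought Ndrg1 to 1.496 and Hif1a to 0.22. Limits of this comparison are 1 array each, the unstated normalization and the equal values on Control and LPS. A further limit is the lower sums of DC, B cell, and macrophage and monocyte markers on the LPS array.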
